A study of Mus musculus with 2 samples.

Results

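The genes described here are 9 CXC chemokines, Cxcl1, Cxcl2, Cxcl5, Cxcl9, Cxcl10, Cxcl12, Cxcl13, Cxcl14 and Cxcl16, and the atypical receptor Ackr3, in single cells of mouse pancreas. They were chosen by symbol, each being 1 of the 27998 genes counted in both libraries, and all 10 were found. The tumour library held cells, labelled as cancer-associated fibroblasts (CAFs), that were sorted as GFP+ and as PDPN+, positive for the fibroblast surface protein podoplanin. They came from tumours taken 21 days after FC1245 cells, a mouse line of pancreatic ductal adenocarcinoma, were placed in the pancreas of mice aged 8 weeks. The normal library held cells sorted as GFP+, with no PDPN gate named in the labels, from the healthy pancreas of mice aged 6 to 9 weeks, labelled as pancreatic stellate cells (PSCs), mesenchymal cells that store vitamin A in droplets. All mice carried Rosa26-mTmG, a reporter that switches from a red to a green membrane protein after Cre recombination, and Fabp4-Cre, in which the promoter of a fatty acid binding protein drives Cre. GFP therefore marks any cell with a history of Fabp4-Cre activity, whatever its type. There was 1 library per group and no replicate, so no test of tumour against normal was possible. How many mice went into each library, and their sex, are not given in the sources used here, but 2089 of 2204 tumour and 486 of 1501 normal fibroblast-like cells had an Xist UMI and no Y-linked UMI. Tumours were digested with collagenase IV, dispase and then trypsin, and the normal pancreas with pronase and collagenase P. Digestion, the PDPN gate, age, the share of cells with that pattern and the presence of a tumour differed together and cannot be told apart. Levels were also read in cells with that pattern alone, called matched for sex below.

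CXC chemokines are small secreted proteins that steer leukocytes through G protein-coupled receptors. Cxcl1, Cxcl2 and Cxcl5 attract neutrophils through Cxcr2, Cxcl9 and Cxcl10 attract activated T and NK cells through Cxcr3, Cxcl13 attracts B cells through Cxcr5, and Cxcl12 holds and guides many cell types through Cxcr4. Ackr3 binds Cxcl12 and takes it up without classical G protein signalling, and in tumours of the pancreas fibroblasts are a known source of Cxcl12 and of neutrophil-attracting chemokines.

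The data are counts of unique molecular identifiers (UMIs), 1 for each captured RNA molecule, from 3′ single-cell RNA sequencing. The tumour library had 33285044 UMIs in 2942 barcodes and the normal library 36675424 UMIs in 5437 barcodes. After filters on cells and the removal of doublets, 2520 tumour cells were kept, with a median of 10156.5 UMIs each, and 4515 normal cells, with a median of 7045.0 UMIs each. The libraries shared 4 barcodes, 2 of them among the cells kept. Clusters were made without any chemokine or chemokine receptor gene and named from marker genes. Fibroblast-like cells, with Col1a1, Dcn, Pdgfra and the like, were 2204 of the tumour cells and 1501 of the normal cells. Macrophage-like cells were 53 in the tumour library and 1389 in the normal library, and 6 tumour and 1346 normal cells were endothelial-like, so that the normal label covers far more than stellate cells. A level is given as CPM, the UMIs of a gene scaled to 1000000 UMIs of all cells in the class, and folds divide the tumour CPM by the normal CPM. Classes under 20 cells in a library are not ranked. Intervals are exact 95% intervals of counting error alone and say nothing of differences between mice. Because 1 tag is counted per molecule, CPM does not grow with transcript length, but capture can differ between genes, and levels are compared within a gene.

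RNA free in the suspension can give UMIs in cells that do not make it, so the same genes were read in B-like cells (52 in the tumour library, with a median of 2616 UMIs, and 73 in the normal library, with a median of 9817). Fibroblast-like cells had medians of 10380.0 UMIs in the tumour and 9034 UMIs in the normal library. In tumour B-like cells only Cxcl1 (17.6 CPM, 3 UMIs), Ackr3 (11.7 CPM, 2 UMIs) and Cxcl10 (5.85 CPM, 1 UMI) had any UMI. In normal B-like cells Cxcl2 had 89.4 CPM, 49 of its 64 UMIs in 1 cell, Ackr3 had 29.3 CPM, Cxcl13 had 12.6 CPM, Cxcl1 had 9.77 CPM and Cxcl12 had 4.19 CPM, and the other 5 genes had no UMI. For Ackr3, 12 of the 21 UMIs lay in 1 cell, so the B-like levels of Cxcl2 and Ackr3 rest mostly on 1 cell each. For the other genes, normal levels at or under these values are read as background. After each cell was thinned to 2000 UMIs, 4.76% of tumour B-like cells had a Cxcl1 UMI and 2.38% an Ackr3 UMI, and of normal ones 2.78% had Cxcl2, 2.78% had Ackr3 and 1.39% had Cxcl13, with none for the other genes. Between B-like cells of the tumour and normal libraries 0 of the 10 genes were called higher, beside 6.3% of 5382 genes tested, and Cxcl2 was called lower, beside 6.76%. Markers of several other cell types stood lower in the tumour fibroblast-like sum. Macrophage and monocyte markers summed to 12.3 CPM in tumour and 235 CPM in normal cells, endothelial markers to 42.0 CPM in tumour and 168 CPM in normal cells, acinar markers to 51.5 CPM in tumour and 365 CPM in normal cells, and B cell markers to 1.21 CPM in tumour and 132 CPM in normal cells. Of the 9 macrophage and monocyte markers, only Ly6c2 was at 0 in the tumour sum, and none was at 0 in the normal sum. Schwann cell or neural markers went the other way, with 165 CPM in tumour and 11.3 CPM in normal cells and Sox10 at 0 in both, as did ductal or tumour epithelial markers, with 93.7 CPM in tumour and 64.5 CPM in normal cells and Cdh1 at 0 in both. In fibroblast-like cells with no UMI of a macrophage, monocyte or endothelial marker, 1392 tumour and 347 normal cells, the log2 folds were 2.69 for Cxcl1, 4.59 for Cxcl2, 4.83 for Cxcl5, 2.42 for Cxcl10, 1.73 for Cxcl13, 1.85 for Cxcl14, 1.20 for Cxcl16 and -1.75 for Ackr3, all called. The part of the other markers in the values below was not tested.

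Sequences before the start site are shown for Cxcl1, Cxcl2 and Cxcl10, which are among the genes higher in tumour fibroblast-like cells, and for Cxcl12, which differed little. Windows of 300 bases, 250 before to 50 after the RefSeq start site on GRCm38.p6, were found for 8 of the 10 genes, and the bases before the first annotated base of each gene are printed, 5′ to 3′ on the gene's strand: chr5:90890995-90891240 and chr5:90903649-90903870 on the plus strand, chr5:92348890-92349139 on the minus strand and chr6:117168285-117168534 on the plus strand. Capitals mark matches, on either strand, to the NF-kB consensus and to the core of the interferon-stimulated response element (ISRE), which is GAAA, any 2 bases and GAAA again.
Cxcl1: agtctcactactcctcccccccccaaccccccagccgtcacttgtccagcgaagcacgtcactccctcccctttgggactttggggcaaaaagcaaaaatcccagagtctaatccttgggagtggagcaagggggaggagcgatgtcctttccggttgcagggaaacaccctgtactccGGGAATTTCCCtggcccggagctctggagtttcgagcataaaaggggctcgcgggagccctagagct
Cxcl2: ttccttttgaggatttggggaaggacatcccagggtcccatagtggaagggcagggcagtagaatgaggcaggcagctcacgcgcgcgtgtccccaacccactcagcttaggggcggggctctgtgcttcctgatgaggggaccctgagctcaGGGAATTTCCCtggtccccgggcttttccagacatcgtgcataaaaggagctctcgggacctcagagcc
Cxcl10: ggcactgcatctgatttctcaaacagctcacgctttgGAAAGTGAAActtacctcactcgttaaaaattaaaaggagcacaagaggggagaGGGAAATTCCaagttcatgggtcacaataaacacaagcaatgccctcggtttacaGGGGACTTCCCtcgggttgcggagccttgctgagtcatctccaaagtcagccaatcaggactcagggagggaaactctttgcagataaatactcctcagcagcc
Cxcl12: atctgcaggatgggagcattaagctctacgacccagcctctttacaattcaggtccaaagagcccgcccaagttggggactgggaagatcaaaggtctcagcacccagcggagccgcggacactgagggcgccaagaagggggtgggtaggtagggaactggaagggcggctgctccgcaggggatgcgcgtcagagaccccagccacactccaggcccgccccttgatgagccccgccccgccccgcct
The windows of Cxcl1 and Cxcl2 share the same match, GGGAATTTCC, which starts 71 bases before the start site in Cxcl1 and 97 bases before it in Cxcl2, with a second match shifted by 1 base and overlapping it. Cxcl10 holds an ISRE core 213 bases before its start site, an NF-kB match at 159 bases and a pair of overlapping NF-kB matches at 104 and 103 bases, and Cxcl12 holds neither motif in its window. Of 32851 such windows, 8.46% hold the NF-kB consensus and 3.44% the ISRE core. Among the other windows found, that of Cxcl14 holds 1 ISRE core and no NF-kB match, and those of Cxcl9, Cxcl13 and Ackr3 hold neither motif. Cxcl9, Cxcl13 and Cxcl14 were also higher in tumour fibroblast-like cells, so not every higher gene with a window holds an NF-kB match. A match describes letters and does not show that a factor binds there.

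Fibroblast-like cells were compared first, to ask which of these genes differed between the tumour and the normal library. Cxcl1, Cxcl2, Cxcl5, Cxcl9, Cxcl10, Cxcl13 and Cxcl14 were higher in tumour cells, Ackr3 was lower, and Cxcl12 and Cxcl16 differed by less than 2-fold. A gene was called when it differed at least 2-fold, its interval excluded 1 and it reached 20 CPM in either sum. By that rule 7 of the 10 genes were called higher, beside 7.45% of the 6815 genes that reached 20 CPM, and 1 of 10 was called lower, beside 11.3%. The median log2 fold of the 10 genes was 1.99, against -0.25 for the 6815 genes. Over all genes 508 were called higher and 772 lower, and with TMM scaling in place of total UMIs 845 were higher and 392 lower, the median of all genes moving to 0.11. With TMM the same numbers of these genes, 7 higher and 1 lower, were called.

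**Figure D1:**
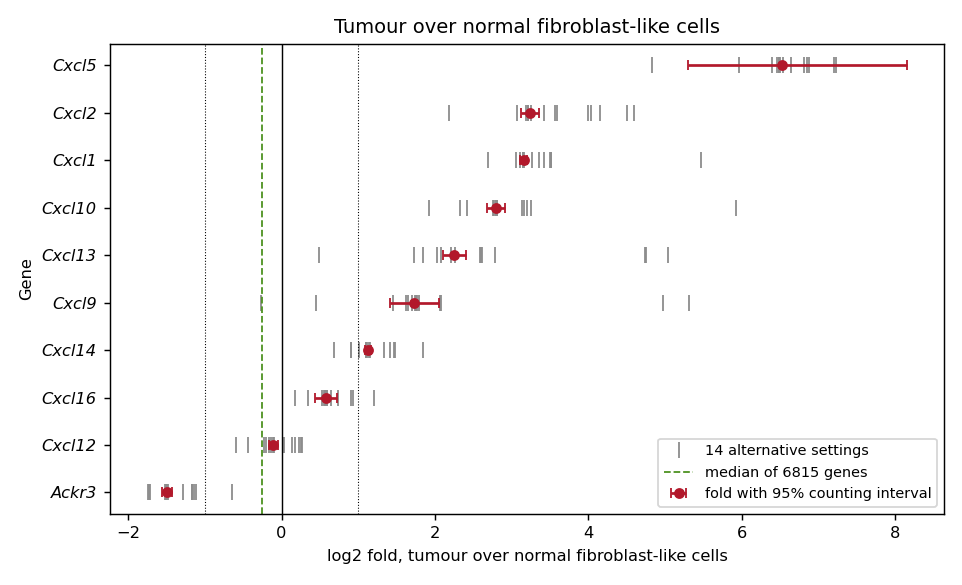
Log2 fold of tumour over normal fibroblast-like cells (x axis) for each of the 10 genes (y axis). Red points with bars are the fold with its 95% counting interval, grey ticks are 14 alternative settings, the dashed line is the median of 6815 genes and dotted lines mark 2-fold. Cxcl5 lies farthest to the right at 6.52, Cxcl12 sits at -0.11 and Ackr3 at -1.50.

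Cxcl1 (ENSMUSG00000029380, GRCm38 chromosome 5, 90891241 to 90893115, plus strand), a neutrophil attractant, had 67880 UMIs or 2424 CPM (2406 to 2443) in tumour fibroblast-like cells and 3924 UMIs or 272 CPM (263 to 280.2) in normal ones. The fold was 8.93 (8.65 to 9.22). After thinning to 2000 UMIs, which left out 89 tumour and 26 normal cells, 70.4% of tumour and 18.6% of normal fibroblast-like cells had a Cxcl1 UMI (unthinned 82.3% of tumour and 32.6% of normal cells). It was the most widespread of the 10 genes in tumour fibroblast-like cells. Among classes of the tumour library the fibroblast-like cells were highest, ahead of an unnamed keratin-led cluster of 96 cells (715 CPM) and macrophage-like cells (588 CPM), and the level of 557 CPM in T-like or NK-like cells came from 64 UMIs in 1 of 24 cells. In the normal library macrophage-like cells were highest with 503 CPM, fibroblast-like cells followed, and endothelial-like cells (11.2 CPM) lay within the interval of B-like cells.

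Cxcl2 (ENSMUSG00000058427, chromosome 5, 90903871 to 90905938, plus strand) acts on the same receptor. Tumour fibroblast-like cells had 10919 UMIs or 390.0 CPM (383 to 397), against 599 UMIs or 41.4 CPM (38.2 to 44.9) in normal ones, a fold of 9.41 (8.66 to 10.2). The thinned share was 14.6% (13.1 to 16.2%) in tumour and 3.53% (2.64 to 4.60%) in normal cells, with 20.1% of tumour and 12.8% of normal cells unthinned. The normal share lies near the 2.78% of normal B-like cells and the normal level below theirs, although that level rests mostly on 1 cell. Of the normal clusters Clec3b/Ogn had 119 CPM (107 to 133), and 3 of its cells held 36.6% of the normal fibroblast-like UMIs. Macrophage-like cells held far more in both libraries, 10280.2 CPM in tumour and 4588.5 CPM in normal cells, with thinned shares of 71.4% in tumour and 66.2% in normal cells. Transcripts of Cxcl2 and Cxcl3 share an exact run of 157 bases, and a sequence read within that run fits both genes. No other pair of the genes described here and Cxcl3 shares more than 23 bases. The effect of the shared run on the count of Cxcl2 was not tested.

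Cxcl5 (ENSMUSG00000029371, chromosome 5, 90759360 to 90761624, plus strand), the last of the neutrophil attractants, had 889 UMIs in 145 tumour fibroblast-like cells, or 31.7 CPM (29.7 to 33.9), and 5 UMIs in 2 normal ones, or 0.35 CPM (0.11 to 0.81). Its fold of 91.8 (39.2 to 283) has the widest interval of the 10, since it rests on those 5 UMIs. In the normal library it had no UMI in 1346 endothelial-like and 1389 macrophage-like cells. The highest level of the tumour library lay in the unnamed keratin-led cluster, with 184 CPM (166 to 202), above the fibroblast-like cells.

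Tumour fibroblast-like cells fell into 4 large clusters, here named by leading genes: Ptx3/Tnfaip6 (634 cells), Thbs4/Cilp (655), Mt1/Apod (544) and Col12a1/Tnc (337). Normal ones fell into Smoc2/Abca8a (955 cells), Sema3c/Pi16 (270) and Clec3b/Ogn (245), and the other library gave at most 27 cells to any of them. Cxcl1 was high in all tumour clusters, from 1531 CPM in Thbs4/Cilp and 1645 CPM in Col12a1/Tnc to 2397 CPM in Mt1/Apod and 4420.3 CPM in Ptx3/Tnfaip6. The normal clusters lay at 425 CPM in Sema3c/Pi16, 392 CPM in Clec3b/Ogn and 123 CPM in Smoc2/Abca8a, all below every tumour cluster of this size. Cxcl2 followed another order, with 687 CPM in Ptx3/Tnfaip6, 416 CPM in Col12a1/Tnc, and 201 and 190.4 CPM in Mt1/Apod and Thbs4/Cilp, whose intervals overlap. Cxcl5 was highest in Mt1/Apod at 75.9 CPM (67.8 to 84.7) and lowest in Thbs4/Cilp at 14.7 CPM. The clusters therefore ranked differently for the 3 attractants of neutrophils.

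**Figure D2:**
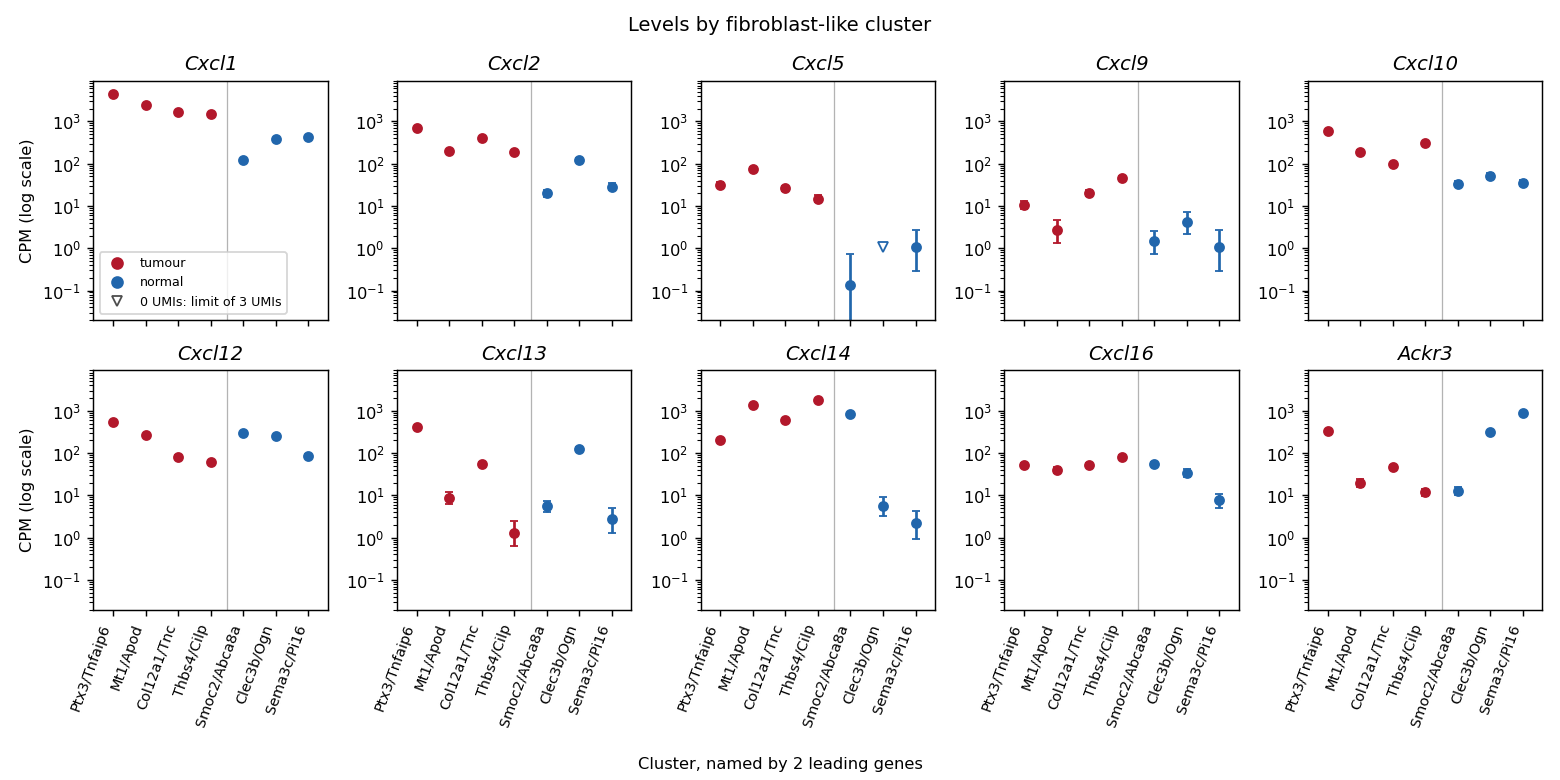
CPM on a log scale (y axis) of each gene in the 4 tumour (red) and 3 normal (blue) fibroblast-like clusters of at least 200 cells (x axis), with 95% counting intervals; an open triangle is the limit of 3 UMIs where none was found. Ptx3/Tnfaip6 is the highest tumour cluster for Cxcl1, Cxcl2, Cxcl10, Cxcl12, Cxcl13 and Ackr3 and the lowest for Cxcl14.

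Cxcl10 (ENSMUSG00000034855, chromosome 5, 92346638 to 92348889, minus strand), an interferon-induced ligand of Cxcr3, had 8465 UMIs or 302 CPM (296 to 309) in tumour fibroblast-like cells and 628 UMIs or 43.5 CPM (40.1 to 47.0) in normal ones. The fold was 6.96 (6.41 to 7.56), and in cells with Xist and no Y-linked UMI it was 3.79, with 303 CPM in tumour and 80.0 CPM in normal cells. Thinned shares were 21.6% in tumour and 1.69% in normal cells (unthinned 33.7% of tumour and 3.53% of normal cells), and 3 of the 53 normal cells with a UMI held 52.5% of the normal UMIs. Ptx3/Tnfaip6 was the highest large tumour cluster with 577 CPM, followed by Thbs4/Cilp with 311 CPM, Mt1/Apod with 193 CPM and Col12a1/Tnc with 96.7 CPM. In the remaining tumour cells, 24 that clustered with Smoc2/Abca8a reached 1810.0 CPM, but 207 UMIs in 2 cells made up that value. Macrophage-like cells had 110 CPM (82.9 to 142) in the tumour and 86.3 CPM (81.1 to 91.7) in the normal library.

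Cxcl9 (ENSMUSG00000029417, chromosome 5, 92321347 to 92328079, minus strand), which shares its receptor with Cxcl10, was rare. There were 616 UMIs in 77 tumour fibroblast-like cells, or 22.0 CPM (20.3 to 23.8), and 96 UMIs in 17 normal ones, or 6.64 CPM (5.38 to 8.11). The fold was 3.31 (2.67 to 4.15), but it rests on few cells. In the tumour library 1 cell held 215 of the UMIs and 3 cells held 50.8% of them, while 1 normal cell held 69 UMIs, 71.9% of its library's fibroblast-like total. That normal cell lay in Ptx3/Tnfaip6, where Cxcl9 had 10.6 CPM in tumour and 207 CPM in 27 normal cells. In Smoc2/Abca8a it had 0 CPM in 24 tumour cells and 1.46 CPM in 955 normal cells. Without the 1% of cells highest in Cxcl9 in each library its level stayed below 20 CPM in both sums, so that it was not called, while its fold was 39.7 (6.92 to 1590) from 77 tumour UMIs and 1 normal UMI. Cells with no UMI of macrophage, monocyte or endothelial markers gave a log2 fold of -0.27, the opposite direction.

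Cxcl12 (ENSMUSG00000061353, chromosome 6, 117168535 to 117181367, plus strand), the ligand of Cxcr4 and Ackr3, was nearly level between the libraries. Tumour fibroblast-like cells had 221 CPM (215 to 227) and normal ones 238 CPM (229.8 to 246), a log2 fold of -0.11. The direction of this small difference depended on the scaling, with 0.23 under TMM and 0.25 under the median ratio of genes. Thinned shares were 27.3% in tumour and 33.7% in normal cells (unthinned 54.6% of tumour and 71.8% of normal cells). Normal endothelial-like cells were the highest class by far with 1807 CPM (1772 to 1843) and a thinned share of 78.3%. Within them the Sema3g/Stmn2 cluster, led by the arterial genes Sema3g, Gja4, Sox17 and Hey1, had 2430.5 CPM, against 1695 CPM in the Emcn/Kdr cluster. Macrophage-like cells had no Cxcl12 UMI in the tumour and 23.5 CPM in the normal library.

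Inside the tumour the level of Cxcl12 was spread unevenly. Ptx3/Tnfaip6 cells, 28.8% of tumour fibroblast-like cells, held 60.5% of their Cxcl12 UMIs at 530 CPM (513 to 547), and Mt1/Apod had 270.5 CPM (255 to 287). Col12a1/Tnc had 83.0 CPM and Thbs4/Cilp 60.9 CPM. Normal clusters of at least 200 cells ranked Smoc2/Abca8a first with 300.3 CPM (288 to 313), then Clec3b/Ogn with 251 CPM and Sema3c/Pi16 with 85.1 CPM. The 27 normal Ptx3/Tnfaip6 cells had 368 CPM (306 to 440), an interval that overlaps that of Smoc2/Abca8a.

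Ackr3 (ENSMUSG00000044337, chromosome 1, 90203980 to 90216751, plus strand), the scavenging receptor for Cxcl12, was the gene called lower. It had 2986 UMIs or 107 CPM (103 to 111) in tumour fibroblast-like cells and 4347 UMIs or 301 CPM (292 to 310) in normal ones, a fold of 0.35 (0.34 to 0.37) and a log2 fold of -1.50. Thinned shares were 10.5% in tumour and 22.0% in normal cells (unthinned 22.3% of tumour and 34.4% of normal cells). In each library Ackr3 belonged mainly to 1 cluster. Sema3c/Pi16 cells of the normal library had 896 CPM (866 to 927), all 270 of them held a UMI, and 81.0% did so after thinning, whereas Smoc2/Abca8a cells had 12.8 CPM, with Clec3b/Ogn between them at 311 CPM (291 to 332). Ptx3/Tnfaip6 cells of the tumour had 333 CPM (319.9 to 347) and held 78.9% of the tumour fibroblast-like Ackr3, with 48.0 CPM in Col12a1/Tnc, 20.1 CPM in Mt1/Apod and 11.8 CPM in Thbs4/Cilp. Only 2 fibroblast-like clusters held at least 20 cells of both libraries, and in neither did the tumour level lie below the normal one. In Ptx3/Tnfaip6 it was 333 CPM in 634 tumour cells and 141 CPM (103 to 187) in 27 normal cells, and in Smoc2/Abca8a 17.5 CPM (2.12 to 63.2) in 24 tumour cells and 12.8 CPM (10.3 to 15.6) in 955 normal cells, where the intervals overlap. The 27 normal Ptx3/Tnfaip6 cells had mesothelial markers at 4658 CPM, against 246 CPM in the tumour cells of that cluster. Their fibroblast markers summed to 21752 CPM, against 46127 CPM in tumour cells. The comparison in Ptx3/Tnfaip6 may therefore set unlike cells against each other. Other classes with Ackr3 were tumour lymphatic endothelial-like cells (215 CPM, 179 to 255), normal endothelial-like cells (136 CPM, 127 to 146) and normal smooth muscle-like cells of the Myh11/Acta2 cluster (275 CPM).

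**Figure D3:**
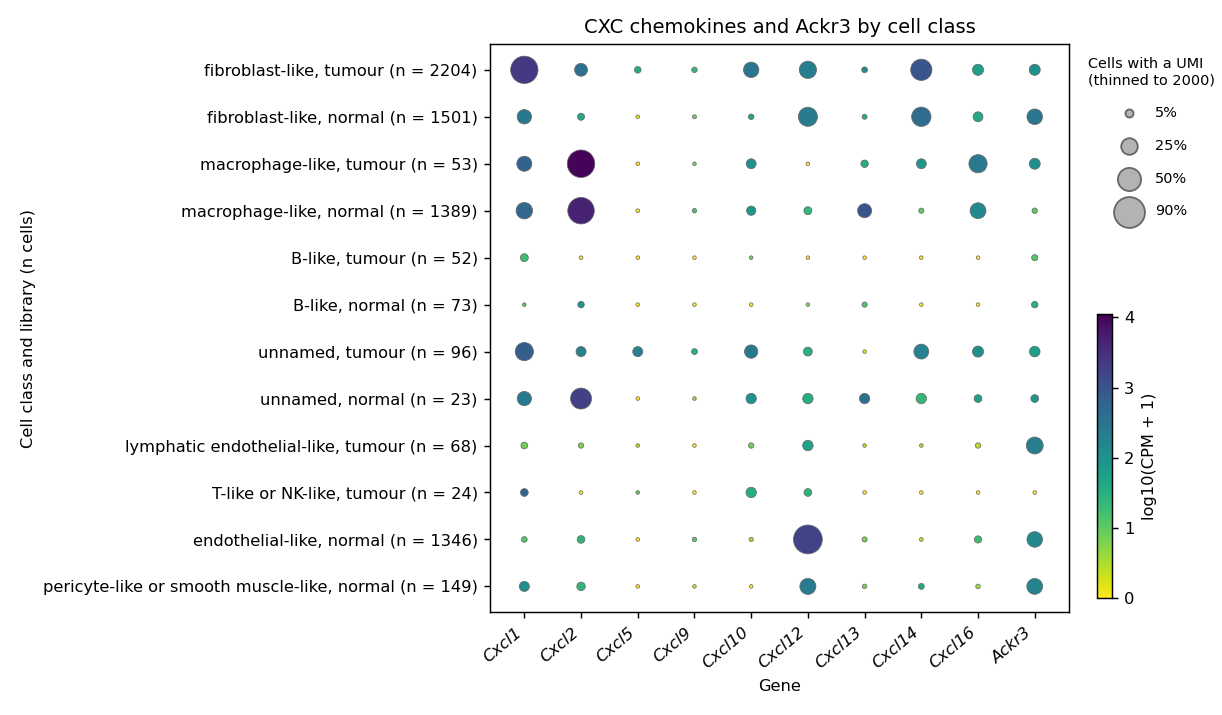
Genes (x axis) by cell class and library (y axis, with the number of cells), tumour rows above normal rows within a class. Dot area is the share of cells with a UMI after thinning to 2000 UMIs and colour is log10(CPM + 1). Cxcl1 in tumour fibroblast-like cells (70.4%), Cxcl2 in macrophage-like cells (71.4% tumour, 66.2% normal) and Cxcl12 in normal endothelial-like cells (78.3%) are the largest dots.

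Ligand and scavenging receptor were read together in cells thinned to 5000 UMIs, 1834 in the tumour and 1353 in the normal library. Of the tumour cells with an Ackr3 UMI, 63.6% (58.1 to 68.8%) also had Cxcl12, against 36.4% (34.0 to 38.9%) of those without. In normal cells the order was turned round, with Cxcl12 in 34.6% (30.1 to 39.3%) of cells with Ackr3 and 69.0% (65.9 to 71.9%) of cells without it. Cxcl14 was found in fewer cells with Ackr3 than without it in both libraries, 19.0% against 58.6% in the tumour and 5.92% against 61.4% in the normal library. The differences between these shares were not tested.

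Cxcl14 (ENSMUSG00000021508, chromosome 13, 56288643 to 56296551, minus strand), a chemokine of epithelia and fibroblasts whose receptor is less settled, had 26187 UMIs or 935 CPM (924 to 947) in tumour fibroblast-like cells and 6194 UMIs or 429 CPM (418 to 439) in normal ones. The fold of 2.18 (2.12 to 2.24) lies just past the limit, and Cxcl14 was not called in 3 of 14 alternative settings. Its log2 fold was 0.91 where every cell had the same weight and 0.91 where cells were matched for sex. It was 0.69 in cells below their own library's median of early response genes. Thinned shares were 42.0% in tumour and 34.6% in normal cells (unthinned 56.5% of tumour and 46.8% of normal cells). Differences between clusters were larger than that between libraries. Thbs4/Cilp had 1757 CPM (1728 to 1787), Mt1/Apod 1391 CPM (1356 to 1427), Col12a1/Tnc 617 CPM and Ptx3/Tnfaip6 203 CPM. In the normal library Smoc2/Abca8a had 818 CPM (798 to 839) and held 99.4% of the fibroblast-like Cxcl14, against 5.60 CPM in Clec3b/Ogn and 2.17 CPM in Sema3c/Pi16. Cxcl14 and Ackr3 thus stood at opposite ends of the normal clusters. The fibroblast-like clusters with at least 20 cells of both libraries went opposite ways for Cxcl14. In Smoc2/Abca8a it had 437 CPM (324 to 576) in 24 tumour cells, below the 818 CPM of 955 normal cells. In Ptx3/Tnfaip6 it had 203 CPM (192 to 213) in 634 tumour cells and 14.98 CPM (4.86 to 34.96) in 27 normal cells. As said for Ackr3, the Ptx3/Tnfaip6 comparison may set unlike cells against each other. Outside fibroblast-like cells the highest normal class was pericyte-like or smooth muscle-like cells with 35.9 CPM.

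Cxcl13 (ENSMUSG00000023078, chromosome 5, 95956951 to 95961068, plus strand), which attracts B cells, gave 3845 UMIs or 137 CPM (133 to 142) in tumour fibroblast-like cells and 416 UMIs or 28.8 CPM (26.1 to 31.7) in normal ones, a fold of 4.77 (4.31 to 5.29). Few cells carried it. A UMI was found in 3.45% of tumour and 3.997% of normal fibroblast-like cells, or 1.99% of tumour and 1.15% of normal ones after thinning, beside 1.39% of normal B-like cells at 12.6 CPM. Of the normal UMIs 86.5% lay in Clec3b/Ogn, at 126 CPM (113 to 140), a cluster in which macrophage and monocyte markers summed to 826 CPM. In the tumour 3 cells with 1039, 493 and 477 UMIs held 52.2% of the total, and without the 1% of cells highest in the gene the log2 fold was 0.49 and the gene was not called. Ptx3/Tnfaip6 held 76.9% of the tumour UMIs at 418 CPM, against 1.31 CPM in Thbs4/Cilp. The class with most Cxcl13 was the macrophage-like cells of the normal library, at 992 CPM (974 to 1010.0), and there the Wfdc17/Fcna cluster, with Timd4 and Vsig4 among its leading genes, had 2884 CPM (2830.0 to 2938) and a thinned share of 59.3%.

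**Figure D4:**
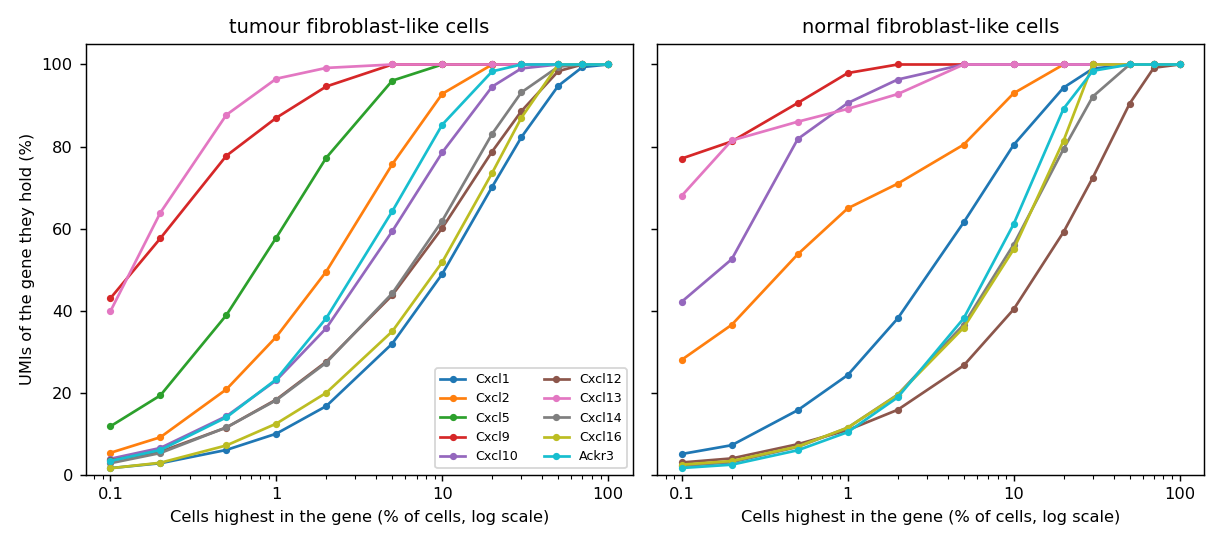
Share of a gene's UMIs (y axis) held by the cells highest in it (x axis, percent of cells on a log scale) in tumour (left) and normal (right) fibroblast-like cells. Cxcl13 and Cxcl9 rise most steeply: in the tumour the top 1% of cells hold 96.5% of Cxcl13 and 87.0% of Cxcl9 but 10.0% of Cxcl1; Cxcl5 is not drawn for the normal library, where it had 5 UMIs.

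The genes differed widely in this concentration. In tumour fibroblast-like cells the 1% of cells with most UMIs (22 cells) held 57.8% of Cxcl5, 33.6% of Cxcl2, 23.3% of Ackr3, 23.0% of Cxcl10, 18.3% of Cxcl12, 18.2% of Cxcl14 and 12.5% of Cxcl16. In normal cells the top 1% (15 cells) held 97.9% of Cxcl9, 90.6% of Cxcl10, 89.2% of Cxcl13 and 64.9% of Cxcl2. For Cxcl1 they held 24.3%, and for Cxcl12, Cxcl14, Cxcl16 and Ackr3 10.4 to 11.5%.

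Cxcl16 (ENSMUSG00000018920, chromosome 11, 70453983 to 70459984, minus strand), a membrane-bound ligand of Cxcr6 that proteases can shed, had 58.4 CPM (55.6 to 61.3) in tumour and 39.2 CPM (36.0 to 42.5) in normal fibroblast-like cells. The fold of 1.49 (1.36 to 1.64) was below the limit, and thinned shares were 10.5% of tumour and 8.14% of normal cells (unthinned 39.6% of tumour and 27.0% of normal cells). Among tumour clusters Thbs4/Cilp had most, 81.8 CPM (75.5 to 88.5), and the normal Sema3c/Pi16 cluster stood apart at the low end with 7.59 CPM (5.04 to 10.97), against 54.9 CPM in Smoc2/Abca8a. Macrophage-like cells were the highest class in both libraries, with 246 CPM in tumour and 136 CPM in normal cells.

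Some of these genes were found in a larger share of cells with a UMI of another gene than of cells without it, and others in a smaller share. After thinning to 5000 UMIs, 29.5% of tumour fibroblast-like cells had UMIs of exactly 3 of the 10 genes, 16.7% of 4 and 6.32% of 5, while 20.03% of normal cells had 3, 4.51% had 4 and 0.74% had 5. Of tumour cells with Cxcl2, 94.3% (91.3 to 96.5%) had Cxcl1, against 74.5% (72.2 to 76.7%) of those without, and in normal cells 39.6% (30.3 to 49.6%) against 26.5% (24.0 to 29.0%). Cxcl10 went with Cxcl1 in the same way, with 88.8% against 73.8% in the tumour and 54.3% against 26.8% in the normal library. Other pairs in tumour cells went the opposite way: Cxcl14 was found in 47.8% (45.2 to 50.4%) of cells with Cxcl1 against 64.9% (60.0 to 69.6%) of those without, and Cxcl12 in 31.2% (28.3 to 34.3%) of cells with Cxcl14 against 52.0% (48.6 to 55.3%) of those without.

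Genes that respond early to stress and to tissue digestion were also higher in the tumour sum. On a list of 22 dissociation and immediate early genes, 11 were called higher, beside 7.45% of all genes, and 0 lower, beside 11.3%, with a sum of 28958 CPM in tumour and 17164 CPM in normal fibroblast-like cells. Fosl1 (38.6 CPM tumour, 0.97 CPM normal), Ier3 (1663 CPM tumour, 67.5 CPM normal) and Hspb1 (783 CPM tumour, 133 CPM normal) led the list. Atf3 (231 CPM tumour, 459.9 CPM normal), Klf2 (223 CPM tumour, 439 CPM normal) and Klf4 (975 CPM tumour, 1153 CPM normal) lay at its low end and were not called. Cells of each library were therefore split at the median share of UMIs from this list, 3.27% in the tumour and 1.07% in the normal library. Cxcl1 had 2711 CPM above the median and 2266 CPM below it in tumour cells, against 445 CPM above and 51.0 CPM below in normal cells, where the gap was wider. In cells below the median the log2 fold of Cxcl1 was 5.47. Ackr3 had 111 CPM above and 104 CPM below the median in tumour cells, against 409 CPM above and 163 CPM below in normal cells, and below the median its log2 fold was -0.64 and it was not called. The clusters differed in this split as well. Of the large tumour clusters 10.7% of Col12a1/Tnc cells and 64.2% of Mt1/Apod cells were above the median, and of the large normal ones 39.9% of Smoc2/Abca8a and 66.7% of Sema3c/Pi16 cells. The part of digestion in these values was not tested.

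**Figure D5:**
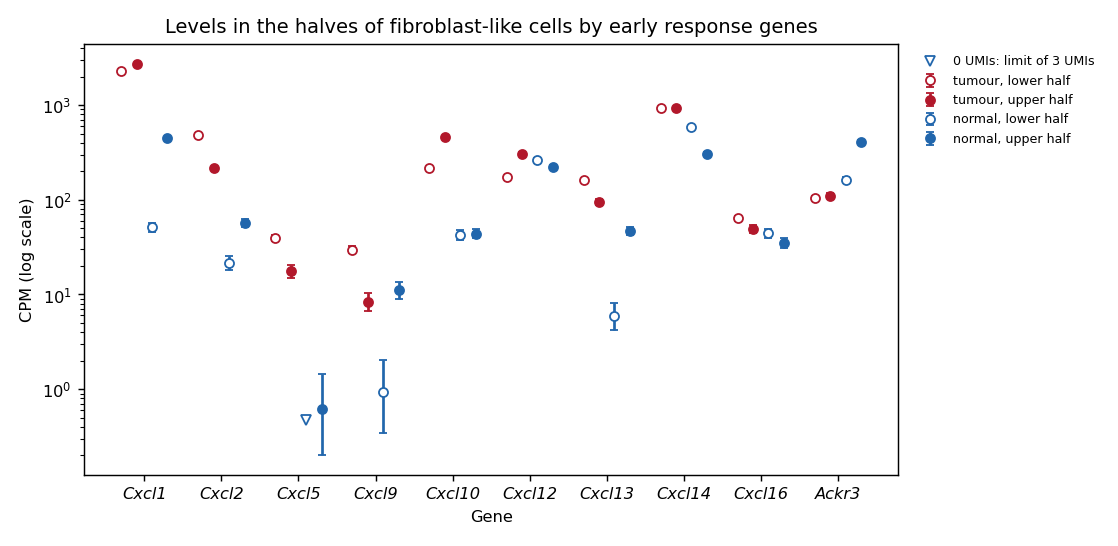
CPM on a log scale (y axis) of each gene (x axis) in tumour (red) and normal (blue) fibroblast-like cells below (open) and above (filled) their library's median share of early response genes, with 95% counting intervals. Both tumour points of Cxcl1 lie above 2000 CPM, while the normal points lie at 51.0 CPM below and 445 CPM above the median.

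Macrophage-like cells could be compared too, although different clusters supply them: 46 of the 53 tumour cells belong to the Cd74/Ear2 cluster, and 913 of the 1389 normal cells to Mrc1/F13a1. Neutrophil markers (S100a8, S100a9, Csf3r, Retnlg and Ly6g) summed to 8832 CPM in the tumour class, where 25 of 53 cells had a UMI of at least 1 of them, and to 82.0 CPM in the normal class, where 315 of 1389 cells did and Ly6g was at 0. In the normal class 301 cells had Csf3r, 21 had S100a8 and 1 had S100a9. In the tumour class 16 cells had S100a8, 16 had Csf3r and 9 had S100a9. A split by these markers therefore rests mainly on Csf3r in the normal class and may not separate the same cells in both. Macrophage and monocyte markers summed to 11459.8 CPM in tumour and 25498 CPM in normal cells, with none of them at 0. Of the 10 genes, Cxcl2, Cxcl14 and Ackr3 were called higher in tumour cells, beside 12.4% of the 6343 genes tested, and Cxcl12 and Cxcl13 lower, beside 14.7%. Cxcl2 differed 2.24-fold (2.18 to 2.30). In the 28 tumour and 1074 normal cells with no neutrophil marker UMI, a split chosen after seeing the data, Cxcl2 had 9909.8 CPM in tumour and 4085 CPM in normal cells, Cxcl14 had 64.9 CPM in tumour and 8.78 CPM in normal cells, and Ackr3 had 95.8 CPM in tumour and 9.01 CPM in normal cells. Cxcl1 was lower there in tumour cells, 259.6 CPM against 442 CPM in normal cells, and in cells with such a UMI it had 1127 CPM in tumour and 665 CPM in normal cells. Ackr3 had 110 CPM in tumour and 9.59 CPM in normal macrophage-like cells, with its 57 tumour UMIs in 8 cells and the normal level under that of normal B-like cells. Cxcl13 had 32.7 CPM in tumour and 992 CPM in normal cells. Within the Cd74/Ear2 cluster alone, 46 tumour and 122 normal cells, Cxcl1, Cxcl2, Cxcl14, Cxcl16 and Ackr3 were called higher, beside 15.4% of genes, and Cxcl9, Cxcl10 and Cxcl13 lower, beside 12.2%. Cxcl2 then differed 3.43-fold (3.30 to 3.57) and Cxcl10 had 119 CPM in tumour and 287 CPM in normal cells. At a finer clustering (resolution of 1) most of the tumour cells, 48 in a cluster led by Il1b and Clec4e, took no class name. In the unnamed keratin-led cluster, led by Krt18, Krt8 and the cell division gene Top2a (96 tumour and 23 normal cells), Cxcl1, Cxcl5, Cxcl9, Cxcl10 and Cxcl14 were called higher in tumour cells, beside 11.2% of genes, and Cxcl2 and Cxcl13 lower, beside 23.7%. Its cells were unlike between the libraries. Ductal or tumour epithelial markers summed to 3725 CPM in its tumour and 3.04 CPM in its normal cells. Macrophage and monocyte markers summed to 45.3 CPM in tumour and 7661 CPM in normal cells. These calls therefore set different kinds of cells against each other.

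Receptors and further CXC ligands were read in the same libraries, on a list that also holds the atypical receptors Ackr1, Ackr2, Ackr4 and Gpr182. Not every atypical receptor on it is a receptor for the ligands described here. Of its 16 genes, all but Cxcl11 were matched, and 3 reached 20 CPM in a fibroblast-like sum. Of these, Pf4 (2.46 CPM tumour, 43.2 CPM normal) and Ackr4 (15.6 CPM tumour, 54.0 CPM normal) were called lower, beside 11.3% of all genes. Ackr1 (11.7 CPM tumour, 21.9 CPM normal) was not called. Pf4 reached 3546 CPM in normal macrophage-like cells. It had 72.6 CPM (52 UMIs) in normal and 0 UMIs in tumour B-like cells. Its normal fibroblast-like level lay under that of normal B-like cells and may be background, which was not tested. Cxcr2, the receptor for Cxcl1, Cxcl2 and Cxcl5, had 40.3 CPM in tumour and 1.18 CPM in normal macrophage-like cells, with all 21 tumour UMIs in cells that also had a neutrophil marker UMI, and 0.39 CPM in tumour and 0.62 CPM in normal fibroblast-like cells. Cxcr3 had 7 UMIs and Cxcr6 had 21 UMIs in the 24 tumour T-like or NK-like cells. Cxcr5 was found in B-like cells, at 93.7 CPM in tumour and 93.55 CPM in normal cells. Cxcr4 was highest in tumour B-like cells (246 CPM), against 50.3 CPM in normal ones. In fibroblast-like cells it had 3.71 CPM in tumour and 0.62 CPM in normal cells. Cxcl3 had 165 UMIs in tumour and 1 UMI in normal fibroblast-like cells, and 1076 CPM in tumour and 4.88 CPM in normal macrophage-like cells. The rest lay low in fibroblast-like cells, with Gpr182 at 2.54 CPM in tumour and 11.5 CPM in normal cells, Ackr2 at 0.14 CPM in tumour and 8.37 CPM in normal cells, at most 11 UMIs of Cxcr2, Cxcr6, Ppbp, Cxcr3 and Cxcr5 in either sum, and none of Cxcl15, Cxcl17 and Cxcr1.

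Enzymes that process or shed these chemokines were counted as a list of 5, of which 4 reached 20 CPM. Dpp4, a membrane peptidase that clips Cxcl10 and Cxcl12, was the 1 called lower, beside 11.3% of all genes, with 33.5 CPM in tumour and 223 CPM in normal fibroblast-like cells. Mmp2, a matrix metalloproteinase, had 1123 CPM in tumour and 637 CPM in normal cells. The sheddase Adam10 had 45.8 CPM in tumour and 54.0 CPM in normal cells and Adam17 had 39.9 CPM in tumour and 60.1 CPM in normal cells, and none of these 3 was called. Mmp9 stayed under 20 CPM with 7.57 CPM in tumour and 2.42 CPM in normal cells. Dpp4 was highest in the cluster that was highest in Ackr3, with 618 CPM in normal Sema3c/Pi16 cells.

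Lists of genes downstream of the pathways that induce these chemokines were counted in the same sums. Of 19 measured NF-kB response genes 16 were called higher, beside 7.45% of all genes, and 0 lower (median log2 fold 1.93), led by Lif (165 CPM tumour, 4.77 CPM normal), Il6 (1263 CPM tumour, 49.0 CPM normal) and Tnfaip3 (176 CPM tumour, 10.1 CPM normal), while Csf1 (233 CPM tumour, 202 CPM normal), Nfkb2 (20.1 CPM tumour, 11.5 CPM normal) and Relb (42.2 CPM tumour, 23.9 CPM normal) were not called. Of 14 measured interferon response genes 0 were called higher and 1 lower (median log2 fold -0.28), a share near the 11.3% of all genes called lower. Ifit3 (15.8 CPM tumour, 31.8 CPM normal) was the one called, and Irf1 (98.6 CPM tumour, 52.1 CPM normal), Isg15 (102 CPM tumour, 59.8 CPM normal) and H2-K1 (502 CPM tumour, 373 CPM normal) had the highest folds, none of them called. Irgm1 (15.9 CPM tumour, 31.1 CPM normal) and Psmb9 (13.4 CPM tumour, 26.2 CPM normal) lay at the low end. Among 9 receptors for upstream cytokines Ifngr1, the interferon gamma receptor chain, was called lower (110.1 CPM tumour, 285 CPM normal) and none higher, again a share near that of all genes. The others named were Il1r1 (164 CPM tumour, 92.0 CPM normal), Il17ra (29.2 CPM tumour, 19.2 CPM normal), Tnfrsf1a (211 CPM tumour, 175 CPM normal), Tnfrsf1b (19.2 CPM tumour, 24.2 CPM normal) and Ltbr (52.8 CPM tumour, 61.8 CPM normal). Of 7 lymphoid stroma genes only Tnfsf13b, a B cell survival factor, was measured, with 18.3 CPM in tumour and 20.9 CPM in normal cells.

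For each gene the 3 most alike genes were found over 21 sums, the classes and fibroblast-like clusters of each library, by Pearson's r of log2(CPM + 1) among 10977 genes. Sums of a class and its clusters share cells, so r is a description. Cxcl1 was most like Mt1 (0.94), Il6 (0.93) and Mt2 (0.92), and Cxcl10 most like Cfb (0.89), Ccl7 (0.84) and Mt2 (0.84). Cxcl2 was most like Saa3 (0.90), Gusb (0.87) and Ccl24 (0.86), and Cxcl13 most like Ccl24 (0.78), Serpinb8 (0.77) and Sgpp1 (0.77). Cxcl12 followed Dlc1 (0.94), Prickle2 (0.93) and Acvr2a (0.91), Cxcl14 followed Mdk (0.91), Pdgfrl (0.89) and Kcne4 (0.88), and Ackr3 followed Limch1 (0.80), Edn1 (0.79) and Adamtsl4 (0.78). For Cxcl5 they were Cfi (0.84), Col11a1 (0.83) and Steap1 (0.83), for Cxcl9 Igfbp2 (0.83), Gjb5 (0.82) and Fabp3 (0.82), and for Cxcl16 Colgalt1 (0.87), C4b (0.86) and Ncln (0.86).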

How the data were processed

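Single-cell RNA sequencing (3′, 10x Genomics) of 1 tumour and 1 normal library was used. The authors deposited raw UMI counts per gene and cell barcode. The submitters' processing notes name Cell Ranger 3.1.0 and mm10. Cells needed 500 genes, 1000 UMIs and no more than 10% mitochondrial UMIs, which left 2573 tumour and 4616 normal cells. Scrublet marked 2 tumour cells (0.0777%), under a limit of 0.5%, so the 53 with the top scores were removed, at an expected rate of 0.8% per 1000 cells, and 101 normal cells. The cells of both were clustered in 1 space, with no batch integration (scanpy 1.11.5, igraph 0.11.9; 2000 variable genes without chemokine or receptor genes, 30 components, 15 neighbours, Leiden resolution of 0.5).

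A cluster took the class whose markers were most often detected, if at least 3 were in 25% of its cells, unless its top 10 genes held more markers of another class. Counts were summed per class or cluster of at least 20 cells and scaled to CPM, with exact Poisson intervals and exact intervals of a ratio of sums (scipy 1.17.1). A count of 0 allows 3 UMIs, and sums at or under 3 UMIs in both libraries were given no fold. TMM factors came from edgeR 4.0.16, with no count test. The calculation was checked on simulated sums. Positions are from the GENCODE annotation of GRCm38, matched by Ensembl identifier.

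The genes, gene lists and the rule for named genes were chosen with earlier results of these data known. The rule named all 10 genes, every other CXC gene or atypical receptor listed and every processing enzyme. For each further list it named the 3 measured genes with the highest folds and the 3 with the lowest. It also named the 3 genes most alike to each of the 10. Alternatives changed cell filters, doublets, clustering, scaling, cell weights, the PDPN gate (cells with a Pdpn UMI), sex (cells with Xist and no Y-linked UMI), early response genes, minimum level and thinning.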

Additional observations from a re-analysis of the deposited data

Results flagged for a closer look

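Cxcl13 differed in opposite directions in 2 cell classes. Its log2 fold, tumour over normal, was 2.25 in fibroblast-like cells and -4.92 in macrophage-like cells, and the difference between the classes was not tested, since there was 1 library per group. The fibroblast-like value rests on few cells, and the macrophage-like value sets mostly Cd74/Ear2 cells of the tumour against a normal class that includes the Wfdc17/Fcna cluster, which had 2884 CPM and no tumour cell.

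Ackr3 also went opposite ways, with a log2 fold of -1.50 in fibroblast-like cells and 3.51 in macrophage-like cells, and this difference was not tested either. The macrophage-like value rests on 57 UMIs in 8 tumour cells.

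Cxcl5 had 183.6 CPM in the tumour cells of the keratin-led cluster that was given no class name, against 0 UMIs in its 23 normal cells. Those normal cells had ductal or tumour epithelial markers at 3.04 CPM, against 3725 CPM in the tumour cells of the cluster. At a resolution of 1, 42 tumour cells of it were ductal-like or tumour epithelial-like and had 380 CPM in 16 cells with a UMI.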

How the results depend on the processing

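The count of 7 genes called higher fell to 4 without the 1% of cells highest in each gene, where Cxcl5, Cxcl9 and Cxcl13 were lost. Cxcl5 and Cxcl9 fell under 20 CPM, and Cxcl13 had a log2 fold of 0.49. Cxcl5 then had 0 normal UMIs, which gave a lower limit of 50.5-fold, and with 0 set to 3 UMIs its log2 fold was 5.96. The fold of Cxcl9 was 39.7 (6.92 to 1590), or log2 5.31. The count was 5 with every cell weighted the same, with cells matched for sex and with a minimum of 50 CPM. The 1 gene called lower, Ackr3, was lost (0 genes) below each library's own median of early response genes. Log2 folds kept their sign in all 14 settings for 8 of the 10 genes. The sign of Cxcl9 was reversed to -0.27 in cells with no macrophage or endothelial marker UMI, a setting chosen after seeing the data that leaves 347 normal cells, and Cxcl12 crossed 0 in 6 settings (-0.59 to 0.26). The ranges were 2.69 to 5.47 for Cxcl1, 2.18 to 4.59 for Cxcl2, 4.83 to 7.23 for Cxcl5, 1.92 (cells matched for sex) to 5.92 for Cxcl10, 0.49 to 5.04 for Cxcl13, 0.69 to 1.85 for Cxcl14, 0.17 to 1.20 for Cxcl16 and -1.75 to -0.64 for Ackr3. Over all genes the calls were 845 higher and 392 lower with TMM, 878 and 379 with the median ratio, which moved the median log2 fold to 0.13, 387 lower at 50 CPM, and 1398 and 2810 with no minimum level. The cause of these moves was not tested. Of 40 shares at other thinning depths 37 moved by more than their interval. No paired analysis was possible because there was 1 library per group. Depth limits Cxcl5 in normal cells most, at 5 UMIs.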
